A study of Mus musculus with 14 samples.

Results

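Long intergenic noncoding RNA (lincRNA) genes that were well expressed in mouse liver were followed through wild-type and Abcb11 knockout animals of both sexes. The genes were the rows of the deposited count table with the biotype lincRNA and a mean of 50 or more raw counts over the 14 libraries, leaving out the X and Y chromosomes and 1 further gene. This left 146 of the 5559 lincRNA genes in the table, which holds 54532 genes in all. Of the 5559, counts were present for 2031, and 665 passed the low-count filter of the test, the 146 among them. Since the mean level over these libraries chose the genes, that level is described here and not tested. Some genes met the limit only through the group where they were high, so their calls in that group are not independent of the choice. At the limit, Gm38102 averaged 50 counts and Gm28151 averaged 50.07 just inside it, and Gm43660 averaged 48.57 and Gm6297 averaged 48.14 just outside it.

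All livers came from C57BL/6J mice aged 52 weeks. The 5 groups were wild-type females (WTF, 2 libraries, numbered 2 and 3), non-tumour liver tissue of Abcb11-/- females (NTF, 3), tumour tissue of Abcb11-/- females (Abcb11F, 3), wild-type males (WTM, 3) and Abcb11-/- males (Abcb11M, 3), whose samples are labelled as liver tissue with no word on tumours. Abcb11 encodes the bile salt export pump of the hepatocyte's canalicular membrane, and the labels give the knockout only as the -/- genotype. The series describes 3 mice per group, and it does not say whether tumour and non-tumour samples of the same number came from 1 mouse. Total counts ran from 14745140 to 19480538 per library. The libraries held hepatocyte markers at a summed 28020 to 93600 CPM (counts scaled to a common library size, here always with TMM factors), and from 15.74% to 42.17% of counts fell on mitochondrially encoded genes. The third wild-type male stood apart in 8 lymphocyte markers, none of them at 0 in any group, which summed to 406.5 CPM there against 4.724 to 58.49 CPM in the other 13 libraries. A clock score, the mean log2 level of 8 evening genes such as Dbp and Per1 minus that of 4 morning genes such as Arntl, lay between -1.36 and -1.26 in WTM, between 2.59 and 3.11 in Abcb11M, at 1.25 and 1.67 in WTF, and between -0.25 and 4.62 in the female knockout libraries. In both female knockout groups the library numbered 1 had the lowest score. Time of collection is not in the labels, so this score and genotype cannot be told apart in the males. In bulk tissue, fewer cells of a type and less RNA per cell cannot be told apart either.

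A lincRNA is transcribed from the ground between protein-coding genes, is usually spliced and polyadenylated, and is not translated into a known protein. Most have no assigned function. A few act in the nucleus: Malat1 RNA gathers in nuclear speckles, the bodies rich in splicing factors, and Neat1 RNA is the scaffold around which paraspeckles assemble. Others are hosts from whose introns or exons small RNAs are cut, such as the snoRNAs of the Snhg genes and the microRNA of Mir142hg, or start beside a coding gene and run away from it. Of the 146 genes, 67 carry predicted-gene names beginning with Gm, 49 carry RIKEN clone names and 9 are named only by a genomic clone. Their median length, 2011 bases, compares with 4263 bases for the 14389 protein-coding genes tested. In the GENCODE M21 annotation 27 have a single merged exon, 12 hold a small RNA gene and 25 overlap the body of a coding gene. A further count, 25, start within 1000 bases of a coding start on the other strand. Whether these run away from the coding gene or into it was not checked. Exon bases were shared with another gene by 46 of the 146 and by none for 100. The sources used here do not say whether reads were counted by strand, so the counts of the 46 are uncertain in the shared stretches.

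Promoter windows, 250 bases before to 50 bases after the transcript start, were taken from RefSeq (GRCm38.p6) and matched to 82 of the 146 genes by name, 71 of them with a start within 1000 bases of the annotated one. The 5 windows below belong to genes on which the results turn: Malat1, 2 genes that differed between wild-type and knockout males (C330002G04Rik and Gm10804), and 2 that differed between knockout tumours and wild-type females (BC049987 and 9030622O22Rik). They lie at chr19:5802623-5802922 (minus strand), chr19:23075856-23076155 (minus), chr2:93452569-93452868 (plus), chr9:44672211-44672510 (minus) and chr2:148040299-148040598 (minus), in that order. Each is written 5′ to 3′ along its own strand, and capitals mark matches on either strand to 7 motifs.
Malat1: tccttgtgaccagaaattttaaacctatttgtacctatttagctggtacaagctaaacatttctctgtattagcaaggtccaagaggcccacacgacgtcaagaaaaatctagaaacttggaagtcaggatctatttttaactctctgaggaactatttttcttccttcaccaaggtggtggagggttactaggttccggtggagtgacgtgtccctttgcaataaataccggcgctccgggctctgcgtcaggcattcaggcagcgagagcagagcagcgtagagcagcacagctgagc
C330002G04Rik: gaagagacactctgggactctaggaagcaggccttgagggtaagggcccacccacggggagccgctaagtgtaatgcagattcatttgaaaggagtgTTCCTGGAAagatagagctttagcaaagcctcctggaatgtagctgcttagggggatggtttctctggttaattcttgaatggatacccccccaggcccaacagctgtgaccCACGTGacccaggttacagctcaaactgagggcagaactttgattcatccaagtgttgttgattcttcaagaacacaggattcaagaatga
Gm10804: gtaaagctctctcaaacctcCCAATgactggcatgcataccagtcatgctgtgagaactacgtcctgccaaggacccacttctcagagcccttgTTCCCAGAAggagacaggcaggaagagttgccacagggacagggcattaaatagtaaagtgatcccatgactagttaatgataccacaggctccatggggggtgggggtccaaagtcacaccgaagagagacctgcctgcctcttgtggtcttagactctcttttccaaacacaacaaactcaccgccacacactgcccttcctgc
BC049987: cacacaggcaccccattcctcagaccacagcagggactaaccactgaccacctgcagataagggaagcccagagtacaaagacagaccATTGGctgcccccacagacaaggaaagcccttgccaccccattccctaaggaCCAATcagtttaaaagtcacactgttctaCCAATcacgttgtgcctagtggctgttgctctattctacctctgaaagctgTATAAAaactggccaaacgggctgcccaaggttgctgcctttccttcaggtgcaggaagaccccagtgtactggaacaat
9030622O22Rik: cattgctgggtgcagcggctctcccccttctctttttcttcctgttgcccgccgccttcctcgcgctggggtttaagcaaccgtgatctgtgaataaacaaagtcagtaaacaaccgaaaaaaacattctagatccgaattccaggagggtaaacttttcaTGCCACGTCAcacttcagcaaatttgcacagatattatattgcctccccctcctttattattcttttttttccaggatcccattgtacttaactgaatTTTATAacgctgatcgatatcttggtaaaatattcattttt
The STAT5 motif was searched as TTCNNNGAA and the D-box as TTATGTAA. The E-box has the letters CACGTG. The TATA box was TATAAA, and the CCAAT box is spelled by its name. The antioxidant response element and the inverted repeat bound by the bile acid receptor FXR were also searched, each by its consensus. The Malat1 window held none of the 7. C330002G04Rik had 1 STAT5 and 1 E-box match, Gm10804 1 STAT5 and 1 CCAAT match, BC049987 1 TATA and 3 CCAAT matches, and 9030622O22Rik 1 TATA match and 1 antioxidant response element match. Over the 71 windows the STAT5 letters occurred in 9.86% against 8.3% of all 32851 windows in the table, the TATA box in 14.1% against 13.6%, and CCAAT in 40.8% against 37.4%. The E-box occurred in 12.7% of the 71 against 7.15% of all windows, and the antioxidant response element in 4.23% against 3.04%. The D-box and the FXR repeat were in none of the 71, and in 0.938% and 0.00913% of all windows. These are letter matches only.

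Together the 146 genes took a small and varying share of all counts. The share was 0.471% and 0.598% in WTF, 0.387%, 0.409% and 0.386% in NTF, and 0.439%, 0.557% and 0.361% in Abcb11F. It was 0.266%, 0.291% and 0.287% in WTM and 0.331%, 0.409% and 0.336% in Abcb11M. The 3 wild-type males lay below the other 11 libraries. Counted without mitochondrially encoded genes they did not: the share was then 0.372%, 0.440% and 0.496% in WTM, against 0.463% in the third NTF library and 0.399% in the third Abcb11M library. Malat1 and Neat1 alone made up 28.7% to 37% of the lincRNA counts in WTM and 43.8% to 63.2% elsewhere. Without these 2 genes the share was 0.265% and 0.277% in WTF and between 0.165% and 0.205% in the other 12 libraries. The wild-type females then stood apart. In WTM it was 0.185%, 0.183% and 0.205%, inside the range of the 3 knockout groups. Gm26917, which stayed in this sum, made up 17.4% to 20.8% of the counts of the 146 genes in WTM. Elsewhere it made up 1.95% to 12.0%. The place of the males in this share therefore depends on that gene, and the share without it was not computed. Leaving out mitochondrially encoded genes as well, the share was 0.405% and 0.415% in WTF and at most 0.354% elsewhere. Since the genes were chosen by level, these shares carry no test.

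**Figure D1:**
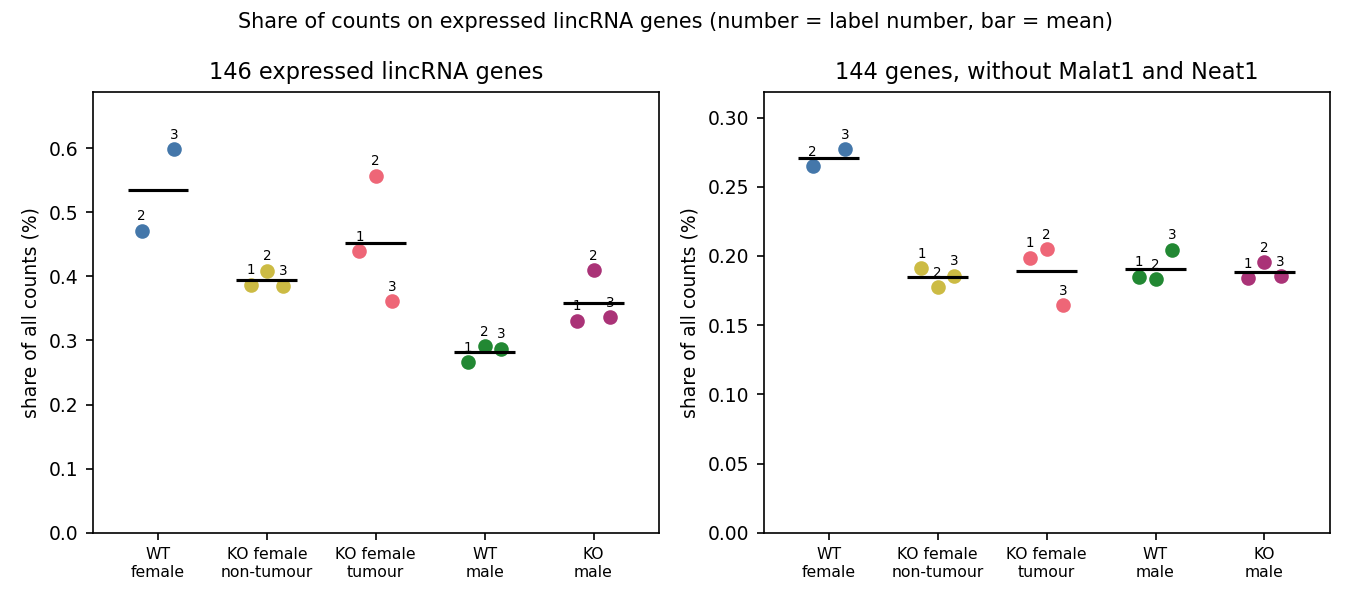
Share of all counts, in percent, on the 146 lincRNA genes (left) and on 144 of them without Malat1 and Neat1 (right). Each point is 1 library with its label number, and each bar a group mean. The wild-type males are lowest at left, between 0.266% and 0.291%, and the wild-type females are highest at right, at 0.265% and 0.277%.

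Per kilobase of gene length, the highest mean levels over the 14 libraries were those of Gm26917 (94.4 CPM per kb), Malat1 (93.3), AW112010, an interferon-inducible RNA (68.1), and Neat1 (61.2). Gm32468, Epb41l4aos, C730036E19Rik, 1810058I24Rik, Gm42047 and Gm27216 followed, from 38.6 down to 25.2 CPM per kb. Of these 10, 1810058I24Rik ranged only from 64.2 to 108.1 CPM over the 14 libraries and was called in no comparison. Gm26917, a single-exon gene on chromosome 17 (39843013 to 39846341, plus strand), split the female knockout groups by library. Its level was 451.5, 98.26 and 103.2 CPM in NTF, and 503.2, 95.89 and 96.89 CPM in Abcb11F. It was 371.6 and 504 CPM in WTF, 578.8, 534.7 and 494.1 CPM in WTM, and 250.5, 164.7 and 153.1 CPM in Abcb11M. The 2 high female knockout libraries were those numbered 1, which also had the lowest clock scores, and the gene passed the threshold in none of the 7 comparisons. Whether the reads counted on Gm26917 come from a lincRNA was not tested, so its rank and its part in the shares above are uncertain.

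By edgeR's quasi-likelihood test, with p-values adjusted over all 17874 genes tested and a threshold of 0.05, 80 of the 146 genes were called in at least 1 of 7 comparisons and 66 in none. The group with the highest mean was WTF for 65 genes, Abcb11M for 30, WTM for 27, Abcb11F for 16 and NTF for 8. Neither count was computed over all genes tested, so they describe the 146 only and are not set against other genes. Several comparisons share libraries: 3 of them set a group directly against the 2 WTF libraries, and the male knockout comparison and the sex comparison both use WTM. Their values are therefore set side by side below and not compared with each other.

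**Figure D2:**
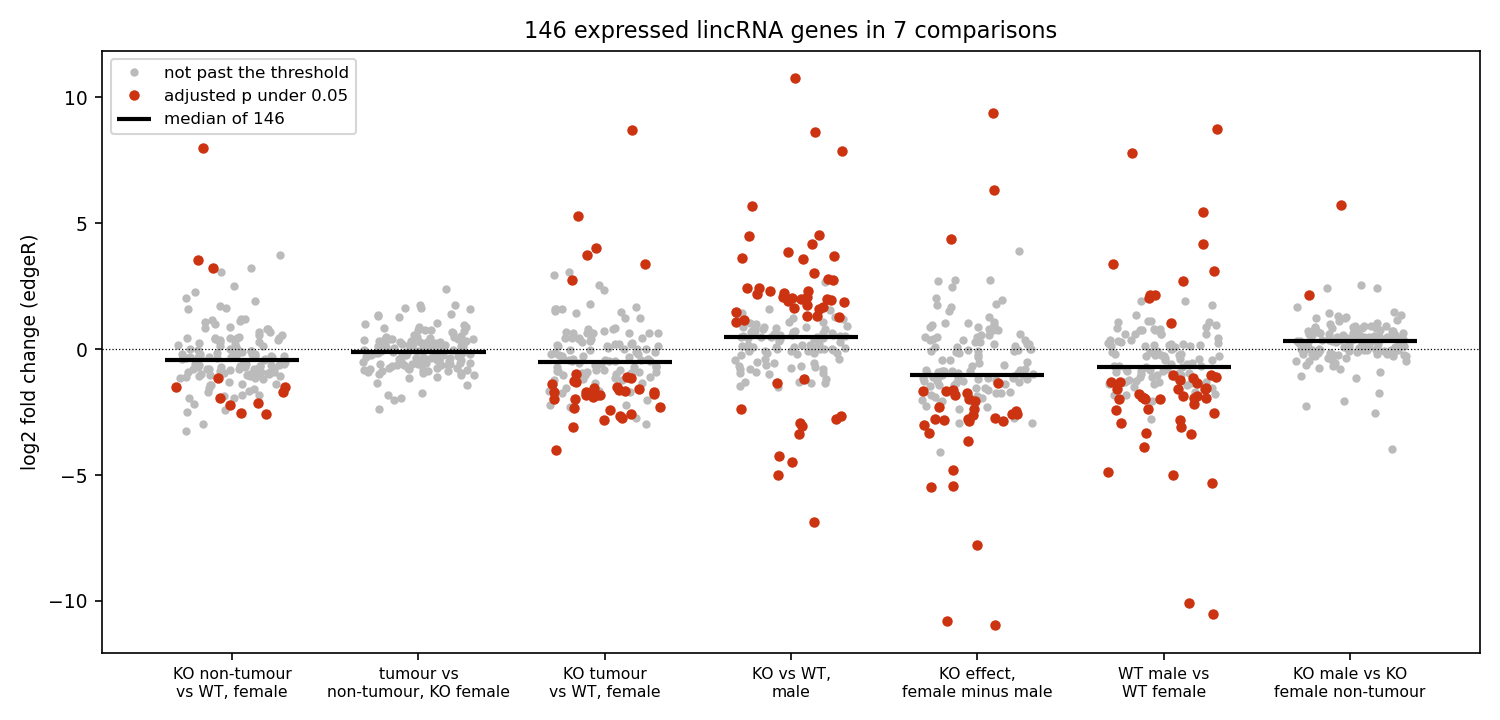
Log2 fold changes of the 146 lincRNA genes (vertical axis, edgeR) in 7 comparisons, 1 point per gene, with red for adjusted p under 0.05 and a bar at the median. The median lies at 0.50 for knockout against wild-type males and at -0.70 for wild-type males against females, and no gene is red for tumour against non-tumour tissue.

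Malat1 passed the threshold in 4 of the 7 comparisons, and its level was lowest in wild-type males and highest in wild-type females. It is a single-exon gene on chromosome 19 (5795690 to 5802672, minus strand). Its level was 1306 and 1707 CPM in WTF, 559.6, 807 and 833.9 CPM in NTF, 433.7, 359 and 509.8 CPM in Abcb11F, 128.5, 131.4 and 180.6 CPM in WTM, and 744.2, 605.1 and 816.4 CPM in Abcb11M. The groups ran from WTF at the top to WTM at the bottom without overlap, except that the ranges of NTF and Abcb11M overlapped. Malat1 was lower in WTM than in WTF, with a log2 fold change of -3.36 (SE 0.323, edgeR adjusted p = 2.7e-05). It was higher in Abcb11M than in WTM by 2.30 (SE 0.295, edgeR adjusted p = 0.000185). The knockout difference in females minus that in males was -3.34 (SE 0.424, edgeR adjusted p = 0.000567). The difference between knockout and wild type in Malat1 was thus not the same in females and males. These 3 calls held with each library left out and with the clock score as a covariate, an alternative chosen after seeing the data, where the adjusted p-values were 0.000341, 0.0215 and 0.00512. The score of WTM overlapped neither that of WTF nor that of Abcb11M, so this covariate cannot separate score from group here.

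Among females, Malat1 was lower in Abcb11F than in WTF by a log2 difference of -1.79 (SE 0.311, edgeR adjusted p = 0.00375), with levels that did not overlap. Without the third wild-type female the adjusted p of that difference was 0.0725. In NTF against WTF the log2 difference was -1.04 (SE 0.310) with an edgeR adjusted p of 0.0704, while DESeq2 gave 0.00167 and limma-voom 0.0102. Between tumour and non-tumour tissue it was -0.76 (SE 0.283, edgeR adjusted p = 0.665), and the 3 tumour libraries lay below the 3 non-tumour libraries.

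Neat1 lies beside Malat1 on chromosome 19 (5824708 to 5845478, minus strand), and its levels followed another order. They were 663.9 and 1138 CPM in WTF, 1345, 1547 and 840.6 CPM in NTF, 2191, 2749 and 1428 CPM in Abcb11F, 721.1, 1004 and 624 CPM in WTM, and 1042, 1703 and 786.9 CPM in Abcb11M. The tumours held the 2 highest values, and neighbouring groups overlapped. Neat1 passed the threshold in none of the 7 comparisons. The difference nearest to it was Abcb11F against WTF, at a log2 of 1.24 (SE 0.449, edgeR adjusted p = 0.0924), where the groups did not overlap and where DESeq2 gave 0.0185 and limma-voom 0.0175.

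**Figure D3:**
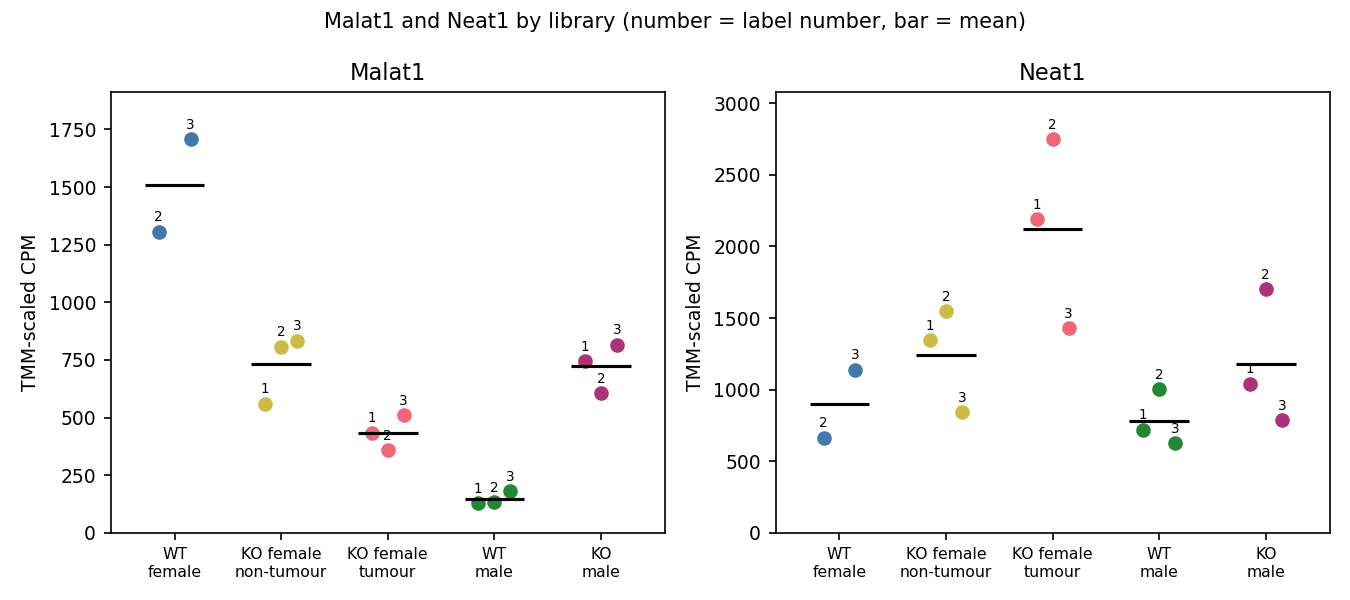
Levels of Malat1 (left) and Neat1 (right) in TMM-scaled CPM, 1 point per library with its label number and a bar at each group mean. Malat1 runs from 1306 and 1707 CPM in wild-type females down to 128.5 to 180.6 CPM in wild-type males. Neat1 has its highest group mean in the tumours, at 1428 to 2749 CPM, a range that overlaps that of non-tumour knockout tissue.

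The proteins of the 2 nuclear bodies were read from lists of 24 nuclear speckle genes and 16 paraspeckle genes. In WTM against WTF, 14 of the 24 speckle genes were lower and 0 higher, against 16.1% lower and 7.03% higher among all genes tested, with a list median of -0.89 against -0.12 over all genes. Srsf5, a serine- and arginine-rich splicing factor, averaged 819 CPM in WTF and 110.4 CPM in WTM, a log2 difference of -2.89 (SE 0.301, edgeR adjusted p = 4.6e-05). Srsf2, of the same family, differed by -2.68, the speckle scaffold Srrm2 by -2.43 and the splicing-associated Pnn by -2.23. In Abcb11M against WTM, 5 of the 24 rose (Srrm2, Srsf2, Srsf5, Pnn and Pnisr) and 2 fell (U2af1 and Ddx39b), where 14.3% of all genes rose and 6.32% fell. With RLE scaling 13 were lower in WTM than in WTF, and in the male knockout 5 rose and 3 fell. In females, 3 were lower in NTF than in WTF and 6 in Abcb11F than in WTF, with 0 higher in either, where 2.26% and 5.67% of all genes were lower. The interaction was negative for 6 (Srrm2, Srsf2, Srsf5, Pnn, Pnisr and Thoc2), against 8.68% of all genes. Of the 16 paraspeckle genes, 2 were higher and 5 lower in WTM than in WTF, against the same 7.03% and 16.1%. Cpsf6, a cleavage factor subunit, fell by 2.36 on the log2 scale there, and Smarca4, a chromatin remodeller, was higher by 1.20.

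Wild-type males and wild-type females differed at 48 lincRNA genes, 11 higher and 37 lower in males. That is 32.9% of the 146, against 23.1% of all genes tested (7.03% higher and 16.1% lower) and 27.1% of the tested genes with a mean of 50 or more counts. The median log2 difference was -0.70 over the 146 and -0.12 over all genes. With another scaling (RLE) the all-gene median moved to -0.01 here and from 0.11 to 0.00 in the male knockout comparison, so log2 values in comparisons with WTM carry an uncertain offset of about that size. The levels of the 2 groups overlapped for 1 of the 48, Gm42047. The 48 were picked by the same levels, and the share over all called genes was not computed, here or for the male knockout below. With the third or the second wild-type female left out, 23 or 24 of the 146 genes were called, and without the first wild-type male 31. With the clock score as a covariate 24 were called, against 10.9% of all genes tested. The score does not overlap between WTM and WTF, so score and group cannot be told apart in this comparison. Markers of other cell types also differed. Erythroid markers summed to 306.3, 342.1 and 84.52 CPM in WTM and to 55.75 and 47.65 CPM in WTF, with 2 of 3 higher. Endothelial markers were higher for 2 of 6 (124 to 195.1 CPM against 98.85 and 110.6 CPM), and macrophage and Kupffer cell markers for 1 of 8 (224.3 to 262.9 CPM against 113.4 and 108.7 CPM). Cholangiocyte markers were lower for 2 of 6 (57.27 to 83.7 CPM against 277.1 and 132.9 CPM), with Cftr at 0 in WTM, and with RLE scaling for 1 of 6. The part of these cells in the lincRNA differences was not tested.

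Among the genes lower in males, Gm6135 (chromosome 3, 133789515 to 133791504, minus strand) had no count in any wild-type male. Its level was 10.48 and 5.107 CPM in WTF, 3.095, 12.28 and 4.974 CPM in NTF, 1.793, 2.82 and 1.369 CPM in Abcb11F, and 12.12, 9.72 and 15.55 CPM in Abcb11M. Each such bound set the lowest library of the higher group against 3 counts in 1 library without counts, at the highest such floor. Gm6135 was thus at least 23.8-fold higher in WTF than in WTM, and at least 45.3-fold higher in Abcb11M than in WTM. The edgeR adjusted p-values were 6.8e-05 and 4.58e-05. Gm38102 on chromosome 5 was also without counts in WTM and stood at 10.35 and 10.6 CPM in WTF, at least 48.2-fold higher (edgeR adjusted p = 0.000165). It shares 76% of its exon bases with AI480526 on the opposite strand, so its own level is uncertain.

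A930038B10Rik was at 11.04 and 11.8 CPM in WTF, at 0, 0.6442 and 0.5046 CPM in WTM and at 4.091, 6.87 and 3.675 CPM in Abcb11M. D230017M19Rik, which lies across the gene for the peroxisomal reductase Pecr, was at 15.78 and 14.46 CPM in WTF, at 0, 1.074 and 0.3532 CPM in WTM, and at 7.141, 2.85 and 6.898 CPM in Abcb11M. In both genes the wild-type females were high, the wild-type males close to 0 and the male knockouts between them, with no overlap. The log2 differences between WTM and WTF were -4.87 (SE 0.710) and -5.00 (SE 0.836), with edgeR adjusted p-values of 0.000369 and 0.000994, called in every fit with a library left out. C730036E19Rik was at 109.3 and 77.48 CPM in WTF and at 2.975, 1.217 and 2.775 CPM in WTM (edgeR adjusted p = 0.0201). That call was lost when any of these 5 libraries was left out.

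Of the 11 genes higher in males, C330002G04Rik (chromosome 19, 23037390 to 23075853, minus strand) was close to limited to them. It stood at 37.06, 40.51 and 47.98 CPM in WTM, at 2.232, 1.169 and 0.5654 CPM in Abcb11M, at 0 and 0.3373 CPM in WTF, and at no more than 0.05247 CPM in the 6 female knockout libraries. Outside WTM it had 0 to 30 raw counts per library, so it met the count limit only through WTM. Gm26772, inside the gene of the coactivator Zmiz1, was at 37.58, 26.62 and 30.63 CPM in WTM, at 1.871 and 1.59 CPM in WTF, at 2.38, 2.266 and 0.4523 CPM in Abcb11M, and at no more than 11.25 CPM in the female knockout libraries. Both genes thus separated the wild-type males from all other groups. The log2 differences between WTM and WTF were 7.78 (SE 0.840) for C330002G04Rik and 4.19 (SE 0.732) for Gm26772, with edgeR adjusted p-values of 5.17e-05 and 0.00139. With the clock score as a covariate the adjusted p of C330002G04Rik was 0.0796 and that of Gm26772 was 0.0111. C330002G04Rik shares 27.6% of its exon bases with Trpm3.

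AI463229 and AC154200.1 were also higher in WTM than in WTF, by log2 differences of 2.16 and 3.39 (edgeR adjusted p = 0.00432 and 0.00446). Both calls were lost without the second wild-type female, and that of AC154200.1 also without the third. AI463229 stood at 93.72, 71.64 and 72.36 CPM in WTM and at no more than 21.11 CPM in any other library. Gm40923 had no count in WTF and 1.229, 5.082 and 2.926 CPM in WTM. It was at least 6.57-fold higher there (edgeR adjusted p = 0.000434).

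**Figure D4:**
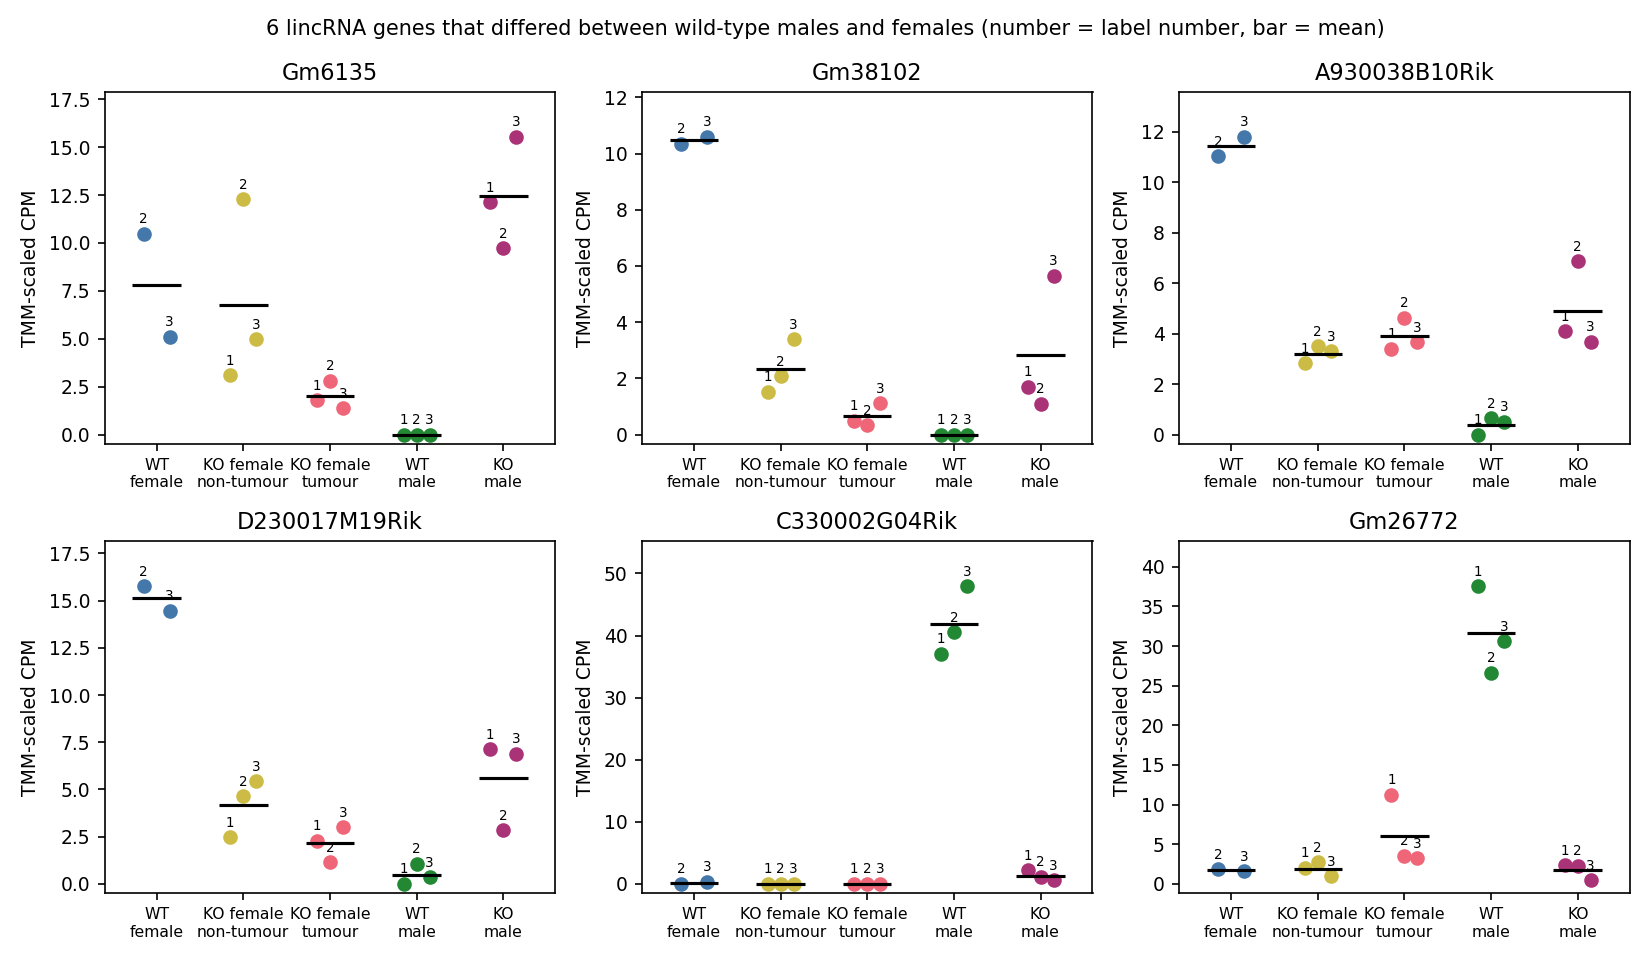
Levels of 6 lincRNA genes in TMM-scaled CPM (vertical axes start at about 0), 1 point per library with its label number and a bar at each group mean. Gm6135, Gm38102, A930038B10Rik and D230017M19Rik are at or near 0 in the 3 wild-type males, and C330002G04Rik and Gm26772 are high only there, from 26.62 to 47.98 CPM.

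**Figure D5:**
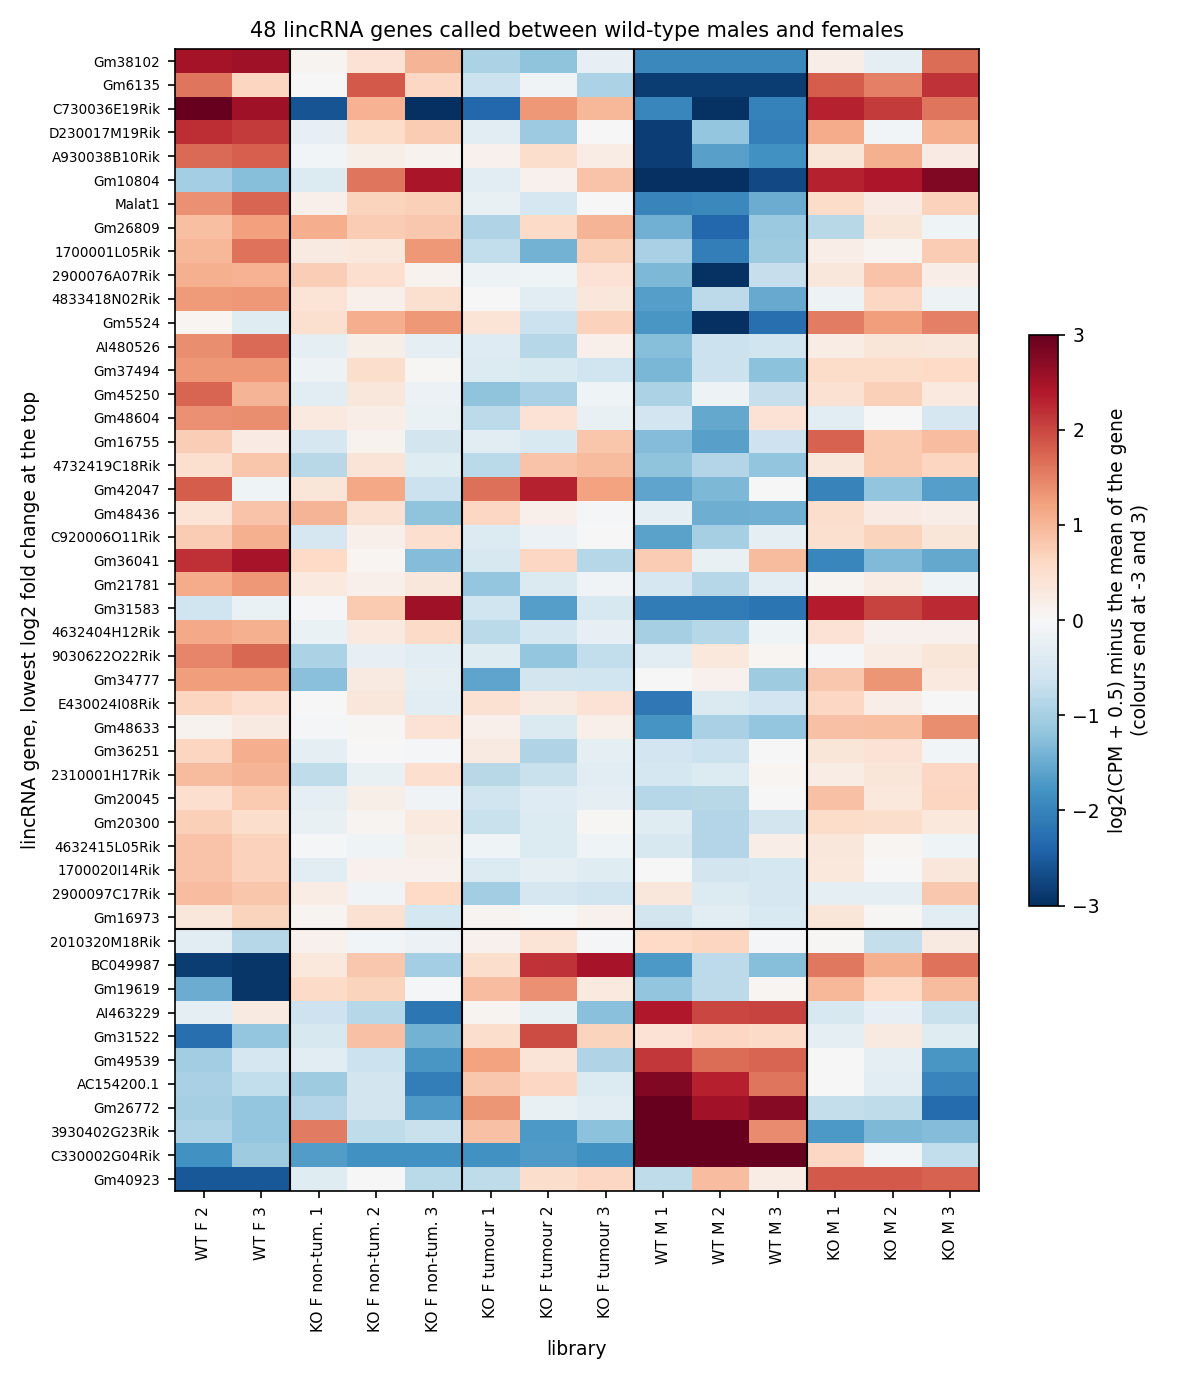
The 48 lincRNA genes called between wild-type males and females (rows, 37 lower in males above the line and 11 higher below) in the 14 libraries (columns). Colour is log2(CPM + 0.5) minus the mean of the gene, red above and blue below it, and most upper rows are red in the 2 wild-type females and blue in the 3 wild-type males.

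Abcb11 knockout males and wild-type males differed at 50 of the 146 lincRNA genes, 38 higher and 12 lower in Abcb11M than in WTM. With RLE scaling the split was 32 higher and 17 lower, where 20% of all genes were called. The 34.2% called with TMM scaling compares with 20.6% of all genes tested (14.3% higher and 6.32% lower) and 24.9% of those with a mean of 50 or more counts, and the median log2 difference was 0.50 against 0.11 over all genes. Ranges overlapped for 2 of the 50, Mir142hg and 1700096K18Rik, and 32 were called in every fit with a library left out. With the clock score as a covariate, 12 genes were called, 12 higher and 0 lower, against 2.62% of all genes tested; the score does not overlap between these groups, so the 2 cannot be told apart.

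Gm10804, which overlaps the gene of the membrane protein Cd82, was at 0, 0 and 0.3027 CPM in WTM and at 25.22, 27.7 and 35.45 CPM in Abcb11M. Its log2 difference was 7.88 (SE 0.952, edgeR adjusted p = 0.000186). In females it stood at 2.058 and 1.638 CPM in WTF, 3.41, 15.25 and 28.08 CPM in NTF and 3.586, 5.162 and 8.873 CPM in Abcb11F. Within each female knockout group the library numbered 1 was the lowest and that numbered 3 the highest, the order of the clock scores. Gm31583, 96231 bases from the gene of the transcriptional repressor Bcl6, also rose. It was at 4.592, 4.581 and 4.238 CPM in WTM and at 111.7, 87.78 and 101.7 CPM in Abcb11M, a log2 difference of 4.49 (SE 0.588, edgeR adjusted p = 0.000335). In NTF it was at 20.62, 36.73 and 127.2 CPM, again lowest in the library with the lowest clock score. In Abcb11F its level did not follow that order: it was lowest in the library numbered 2, and the clock score in that numbered 1. With the clock score as a covariate Gm10804 and Gm31583 kept adjusted p-values of 0.00196 and 0.0155. The score does not overlap between WTM and Abcb11M, so these values cannot separate score from genotype. The part of the score in their levels was not otherwise tested.

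Gm32468 on chromosome 10 was at 4.463, 0.3579 and 3.078 CPM in WTM and at 176.1, 139.3 and 99 CPM in Abcb11M, a log2 difference of 5.69 (SE 0.931, edgeR adjusted p = 0.00192). In females it was at 2.993 and 0.5782 CPM in WTF, 23.45, 41.53 and 5.245 CPM in NTF and 34.13, 29.35 and 22.41 CPM in Abcb11F. The knockout libraries of both sexes thus lay above the wild-type libraries of both sexes. Gm5524 was at 1.94, 0.3579 and 1.211 CPM in WTM and at 23.21, 19.07 and 23.01 CPM in Abcb11M (log2 difference 4.20, SE 0.495, edgeR adjusted p = 9.19e-05), and it shares 32.2% of its exon bases with Gm18776. The interferon-inducible AW112010 rose from 12.94, 18.04 and 37.54 CPM to 75.8, 62.05 and 128.8 CPM (edgeR adjusted p = 0.00314).

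The 12 genes that fell in male knockouts were 3930402G23Rik, C330002G04Rik, Gm31333, Gm26772, Gm13021, AC154200.1, Gm36041, Gm49539, AI463229, Mir142hg, Gm15675 and Snhg12. Of these, C330002G04Rik, 3930402G23Rik, Gm49539 and Mir142hg met the count limit only through WTM, so their fall is not independent of the choice of genes. The log2 difference was -5.00 for C330002G04Rik (SE 0.584, edgeR adjusted p = 8.67e-05) and -4.23 for Gm26772 (SE 0.621, edgeR adjusted p = 0.000503). Gm31333 was at 6.533, 16.82 and 20.89 CPM in WTM and at 0.1488, 1.389 and 0.4523 CPM in Abcb11M (log2 difference -4.47, SE 0.776, edgeR adjusted p = 0.00145). None of these 12 passed with the clock score as a covariate. The log2 difference was then -3.83 for C330002G04Rik (adjusted p = 0.643), -2.98 for Gm26772 (0.0632), -1.52 for Gm15675 (0.182, from -1.36 without the covariate) and -1.07 for Snhg12 (0.192, from -1.17). Mir142hg, host of a microRNA of blood cells, was at 3.687, 2.577 and 20.13 CPM in WTM and at 1.19, 3.143 and 0.7915 CPM in Abcb11M (edgeR adjusted p = 0.0444). Only the third wild-type male was high, the library with 406.5 CPM of lymphocyte markers; the groups overlapped. The call held in 6 of 14 fits with a library left out, and not in that without the third wild-type male. Of the 8 lymphocyte markers 0 passed the threshold, and their part was not tested. Endothelial markers, which summed to 124 to 195.1 CPM in WTM and 79.44 to 105.3 CPM in Abcb11M, fell for 2 of 6, and with RLE scaling for 3. Erythroid markers (84.52 to 342.1 CPM in WTM, 97.81 to 146.4 CPM in Abcb11M) rose for 1 and fell for 1 of 3, and with RLE scaling 0 rose. Cholangiocyte markers fell for 1 of 6, and macrophage and Kupffer cell markers rose for 1 of 8. The part of these cells was not tested either.

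The knockout effect of females, non-tumour tissue against wild type, minus that of males differed at 32 of the 146 genes. It was more negative in females at 29 and more positive at 3, that is 21.9% against 10.9% of all genes tested (8.68% more negative and 2.2% more positive) and 13.3% of those with a mean of 50 or more counts. The median of this difference was -1.01 over the 146 and -0.07 over all genes. Without the third wild-type female 14 genes were called, without the second 18, without the first non-tumour library 18, and with the clock score as a covariate 14, against 3.77% of all genes. The interaction was also positive for 2 of 8 macrophage and Kupffer cell markers, 1 of 6 endothelial and 1 of 6 cholangiocyte markers (2 with RLE scaling), and their part in it was not tested.

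Gm37494, a gene on chromosome 7 (39544402 to 39580589, plus strand), moved in opposite directions in the sexes. It was at 124.3 and 122.6 CPM in WTF, 44.75, 71.38 and 50.82 CPM in NTF, 18.89, 31.64 and 21.04 CPM in WTM, and 73.34, 73.09 and 75.7 CPM in Abcb11M. The wild-type sexes were far apart and the knockout livers lay between them. Its log2 difference was -1.15 (SE 0.246) in females and 1.64 (SE 0.230) in males, and the difference of the 2 was -2.79 (SE 0.335, edgeR adjusted p = 0.000392). AI480526 followed the same course, with log2 differences of -1.70 (SE 0.299) in females and 1.16 (SE 0.278) in males and an interaction of -2.86 (SE 0.409, edgeR adjusted p = 0.000976). It shares 66.6% of its exon bases with Gm38102 and 4932422M17Rik.

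Among females, NTF and WTF differed at 12 of the 146 genes, 3 higher and 9 lower in the knockout, or 8.22% against 4.16% of all genes tested (1.9% higher and 2.26% lower) and 6.2% of those with a mean of 50 or more counts. The median log2 difference was -0.41, against 0.00 over all genes. 9030622O22Rik, which lies 2674 bases from the gene of the liver transcription factor Foxa2, was at 34.67 and 41.29 CPM in WTF and at 6.086, 10.21 and 9.586 CPM in NTF. The groups did not overlap, and the log2 difference was -2.14 (SE 0.304, edgeR adjusted p = 0.00326). BC049987 (chromosome 9, 44670453 to 44672238, minus strand), next to the trehalase gene Treh, was at 1.247 and 1.156 CPM in WTF and at 15.16, 21.6 and 5.742 CPM in NTF, higher by 3.55 (SE 0.670, edgeR adjusted p = 0.017). Gm40923 was at 0 in WTF and at 1.784, 2.433 and 1.176 CPM in NTF, at least 6.28-fold higher (edgeR adjusted p = 0.00806).

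None of the 12 calls in NTF held in every fit with a library left out. Without the third wild-type female 0 of the 146 were called, without the second wild-type female 4, without the third non-tumour library 4, and without the first non-tumour library 7. With all libraries DESeq2 called 32 of the 146 against 10.9% of all genes, and limma-voom 49 against 19%. Without both female knockout libraries numbered 1, edgeR called 9. The share over all genes is not given for fits with libraries left out. Macrophage and Kupffer cell markers summed to 193.3 to 448.6 CPM in NTF and to 113.4 and 108.7 CPM in WTF, with 2 of 8 higher, and their part in these differences was not tested.

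Tumours of knockout females differed from wild-type females at 36 of the 146 genes, 6 higher and 30 lower. The 24.7% compares with 9.61% of all genes tested (3.94% higher and 5.67% lower) and 13.5% of those with a mean of 50 or more counts, and the median log2 difference was -0.51 against 0.03 over all genes. 5 genes were called in every fit with a library left out: 9030622O22Rik, AI480526, Gm37494, BC049987 and Gm40923. 9030622O22Rik was at 9.398, 5.162 and 7.149 CPM in the tumours, below both wild-type females (log2 difference -2.39, SE 0.306, edgeR adjusted p = 0.000625). BC049987 was at 17.62, 56.5 and 69 CPM in Abcb11F, above both wild-type females (log2 difference 5.31, SE 0.716, edgeR adjusted p = 0.00106). In males it stood at 3.299, 6.871 and 4.743 CPM in WTM and at 37.04, 26.09 and 38.73 CPM in Abcb11M, a log2 difference of 2.77 (SE 0.522, edgeR adjusted p = 0.0028). BC049987 was therefore higher in each of the 3 knockout groups than in the wild type of its sex.

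Mir17hg, host of the microRNA cluster miR-17-92, was lower in Abcb11F than in WTF, with a log2 difference of -1.98 and an edgeR adjusted p of 0.0134, a call lost without the third wild-type female or either of the tumour libraries numbered 2 and 3. Without the third wild-type female 7 of the 146 genes were called, without the second 13, and without the second tumour library 20. Without both female knockout libraries numbered 1 there were 27. The share over all genes is not given for these fits. Cholangiocyte markers summed to 659.9 to 1349 CPM in the tumours and to 277.1 and 132.9 CPM in WTF, with 3 of 6 higher and none at 0 in either group; their part in these differences was not tested.

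Tumour and non-tumour tissue of knockout females differed at 0 of the 146 genes by edgeR, and at 0.0% of all genes tested. At an unadjusted p under 0.05 there were 21 of the 146 and 1217 of all genes. DESeq2 called 1 lincRNA gene (0.162% of all genes), limma-voom 0 (0.0%), and edgeR without the low-count filter 15 (1.17%). The lowest unadjusted p belonged to Gm31583, at 13.97, 6.453 and 15.06 CPM in Abcb11F and 20.62, 36.73 and 127.2 CPM in NTF (log2 difference -2.38, SE 0.530, edgeR adjusted p = 0.665). The 2 groups did not overlap, but the third non-tumour library was far above the other 2.

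Knockout males and non-tumour knockout females differed at 2 of the 146 genes, both higher in males, or 1.37% against 0.392% of all genes tested (0.207% higher and 0.185% lower) and 0.563% of those with a mean of 50 or more counts. Gm30262 was at 47.16, 52.99 and 34.77 CPM in Abcb11M and at 12.75, 9.494 and 7.958 CPM in NTF, higher by 2.16 (SE 0.398, edgeR adjusted p = 0.0266). In WTM it was at 13.2, 13.1 and 9.133 CPM and in WTF at 15.09 and 16.33 CPM, so the male knockouts were above all other groups. C330002G04Rik, with 1 count in all of NTF, was 72.5-fold higher in Abcb11M (95% interval 12.5 to 2915, for counting error only, edgeR adjusted p = 0.018). Both calls were lost without the first knockout male or any 1 of the 3 non-tumour libraries, and that of Gm30262 also without the third knockout male or the third wild-type female.

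Coding neighbours gave values of their own. In WTM against WTF, 39 of the 48 called lincRNA genes had a nearest coding gene that was tested. Of these, 16 were called, against 23.1% of all genes tested, 11 in the direction of the lincRNA and 5 in the other. In Abcb11M against WTM 13 of 44 were called, against 20.6% of all genes, 10 in the same direction and 3 in the other, and in Abcb11F against WTF 12 of 31, against 9.61%, all 12 in the same direction. Whether neighbours were called more often than other genes was not tested. Setd1b, a histone H3K4 methyltransferase gene 527 bases from AI480526, averaged 46.2 ± 11.9 CPM (SD, n = 2) in WTF and 15.1 ± 1.11 CPM (SD, n = 3) in Abcb11F, a log2 difference of -1.61 (SE 0.277) where AI480526 had -1.89. Foxa2, next to 9030622O22Rik, averaged 68.47 CPM in WTF and 26.77 CPM in Abcb11F (log2 difference -1.35, SE 0.364, edgeR adjusted p = 0.0315). Treh, next to BC049987, was higher in Abcb11F than in WTF by 4.48 (SE 1.25, edgeR adjusted p = 0.0376), from low levels that averaged 0.374 and 8.10 CPM.

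In males, Cfap54, a cilium gene 2588 bases from Gm32468, rose with it by 3.84 (SE 0.666, edgeR adjusted p = 0.00127). Pecr rose by 2.25 (SE 0.395) where D230017M19Rik rose by 3.58, and these 2 genes share 3.3% of the exon bases of D230017M19Rik. Zmiz1 moved against Gm26772, with a log2 difference of 0.83 (SE 0.209) in male knockouts and of -1.29 (SE 0.228) in WTM against WTF. Riok2, a kinase of ribosome assembly whose gene lies 103 bases from AC154200.1, also moved against it, by 1.07 and -0.90 in the same comparisons. Phlda1, 90532 bases from Gm30262, was higher in Abcb11M than in NTF by 3.20 (SE 0.556, edgeR adjusted p = 0.0266). Whether reads were counted on the wrong gene at such pairs was not tested.

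Small RNA hosts did not move as 1 block. Of 25 host genes listed, whatever their biotype, 21 were tested. In Abcb11M against WTM, 3 rose (Snhg11 by 3.56, Snhg14 by 2.95 and Mir22hg by 1.79 on the log2 scale) and 4 fell (Dleu2 by 1.31, Snhg12 by 1.17, Gas5 by 0.77 and Snhg8 by 0.65), against 14.3% and 6.32% of all genes tested. With RLE scaling 3 rose and 5 fell. Snhg12, a lincRNA gene here that holds snoRNA genes, stood at 35.06, 27.05 and 26.89 CPM in WTM and at 13.02, 10.23 and 16.34 CPM in Abcb11M. Of 18 tested genes of nuclear RNA maturation and decay, 0 rose and 3 fell in that comparison (Elac2, Exosc10 and Zcchc8), and with RLE scaling 5 fell. Meg3, Rian and Mirg of the imprinted Dlk1-Dio3 region passed the threshold in none of the 7 comparisons. By shared exon bases, in Abcb11M against WTM 16 of 46 rose and 3 fell with shared bases, and 22 of 100 rose and 9 fell without; the difference was not tested.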

How the data were processed

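RNA-seq of 14 mouse liver libraries was analysed from the authors' deposited table of raw counts per gene; the submitters' processing notes name HISAT2 2.0.5, featureCounts 1.5.0-p3 and GRCm38. The FPKM values deposited in the same table were not used. Exons and gene overlaps were read from GENCODE M21, of the same build. Members and lists were chosen with earlier results of these data known, and 1 gene is not reported here.

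Counts of all 54532 genes were fitted with edgeR 4.0.16 in R 4.3.3 (TMM scaling, filterByExpr over 5 groups, which kept 17874 genes, quasi-likelihood F test, 2-sided, Benjamini-Hochberg adjustment over all genes tested, threshold 0.05), with all 14 libraries in 1 fit and no covariate. The SE of a log2 difference was taken from its size over the root of F, and the common dispersion corresponded to a biological coefficient of variation of 0.442. The script was tested on simulated data. Alternatives were RLE scaling, no low-count filter (28842 genes), DESeq2 1.42.0, limma-voom (limma 3.58.1), a replicate block, each library left out in turn and, chosen after seeing the data, the clock score as a covariate and both number 1 female knockout libraries left out. Shares were also computed without mitochondrially encoded genes and with mean limits of 20 and 100 counts. p-values measure the spread between these samples. With 14745140 to 19480538 counts per library, 3 counts are 0.136 to 0.223 CPM, and floors and intervals cover counting error only.

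Named genes were Malat1 and Neat1, the 10 with the highest level per length, up to 12 rising and 12 falling per comparison, nearest coding genes of these, genes at the count limit and list members; 1700096K18Rik and genes sharing exon bases were named after their values were seen. Deviations of same-numbered NTF and Abcb11F libraries from their group means correlated at 0.473, 0.373 and 0.320 over 10229 genes. NTF and Abcb11M cannot share a mouse, yet their libraries numbered 2 and 3 correlated at 0.324 and 0.4015, and those numbered 1 at -0.0448. WTM 3 and Abcb11M 2, of unlike number, correlated at 0.404. These values therefore cannot show which libraries, if any, came from 1 mouse. The replicate block gave each number 1 effect common to all groups, so it was no paired test of NTF and Abcb11F. With it the 0 lincRNA calls between them stayed at 0. No 2 libraries had identical columns.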

Additional observations from a re-analysis of the deposited data

Results flagged for a closer look

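The knockout effect in females minus that in males, tested as an interaction in edgeR, passed the threshold for 32 lincRNA genes, of which the 3 positive and the 12 most negative are given here. On the log2 scale it was 9.38 for 3930402G23Rik, 6.31 for Gm40923 and 4.37 for Gm26772. It was -10.97 for Gm6135, -10.80 for Gm38102, -7.76 for C730036E19Rik, -5.47 for A930038B10Rik, -5.44 for D230017M19Rik and -4.81 for Gm10804. It was -3.65 for Gm16755, -3.34 for Malat1, -3.01 for Gm5524, -2.86 for AI480526, -2.85 for Gm34777 and -2.80 for 4732419C18Rik. Gm6135 and Gm38102 had no counts in wild-type males and Gm40923 none in wild-type females, so the fitted values of these 3 depend on the prior count and are no bounds. The calls of 3930402G23Rik, Gm40923 and Gm10804 were lost without either wild-type female, and that of Gm10804 also without the first wild-type male. That of Gm26772 was lost without the third wild-type female, and that of 4732419C18Rik without the same library or the first NTF library. The call of C730036E19Rik was lost without the first NTF library or either wild-type female, and that of Gm34777 without any 1 of these or the third NTF or second Abcb11M library. The other 8 held with each library left out. With the clock score as a covariate 6 no longer passed, with adjusted p-values from 0.0601 to 0.162, although their values kept their sign: 6.18 for 3930402G23Rik, -5.62 for C730036E19Rik, -3.08 for Gm16755, -2.67 for Gm5524, -2.02 for Gm34777 and -1.93 for 4732419C18Rik.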

How the results depend on the processing

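The number of the 146 genes called moved by over 1.5 times under some settings. DESeq2 called 32 in NTF against WTF (12 with edgeR), 1 in Abcb11F against NTF (0) and 7 in Abcb11M against NTF (2). limma-voom called 49 in NTF against WTF, 62 in Abcb11F against WTF (36), 49 in the interaction (32) and 12 in Abcb11M against NTF. Without the low-count filter the counts were 33, 15, 49 and 13 for NTF against WTF, Abcb11F against NTF, the interaction and Abcb11M against NTF. The clock score as a covariate left 12 in Abcb11M against WTM (50), 14 in the interaction and 24 in WTM against WTF (48), and leaving out both number 1 female knockout libraries left 1 in Abcb11M against NTF. The share of all genes called moved too: with limma-voom it was 19% in NTF against WTF, 25.7% in Abcb11F against WTF, 18.6% in the interaction and 3.97% in Abcb11M against NTF, where edgeR had 4.16%, 9.61%, 10.9% and 0.392%. DESeq2 called 10.9%, 0.162% and 2.63% of all genes in its 3 comparisons, and edgeR without the filter 6.03%, 1.17%, 9.76% and 2.43% in its 4. The cause was not tested. Counts of lincRNA genes with 1 library left out, here and above, have no share over all genes beside them. The same holds for counts called in every such fit and for those without both number 1 female knockout libraries. With 1 library left out the counts ran from 0 to 14 in NTF against WTF, 0 to 1 in Abcb11F against NTF, 7 to 41 in Abcb11F against WTF, 38 to 51 in Abcb11M against WTM, 14 to 39 in the interaction, 23 to 53 in WTM against WTF and 0 to 3 in Abcb11M against NTF. With the replicate block they were 11, 0, 36, 53, 35, 41 and 2 in NTF against WTF, Abcb11F against NTF, Abcb11F against WTF, Abcb11M against WTM, the interaction, WTM against WTF and Abcb11M against NTF. All genes were then called at 2.69%, 0.00559%, 7.68%, 19.6%, 9.01%, 19.7% and 0.347%. The block ended the calls of Gm20342, Gm36041 and Gm7160 in the first of these, of D230017M19Rik and Gm6135 in the third, of Mir142hg in the fourth and of 2010320M18Rik in WTM against WTF, and changed no other call among 106 named results. It takes each library number as 1 effect common to all groups, although numbers in different groups need not match.

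Counted without mitochondrially encoded genes, the lincRNA share was 0.808% in WTF, 0.521% in NTF, 0.656% in Abcb11F, 0.436% in WTM and 0.510% in Abcb11M, and without Malat1 and Neat1 0.410%, 0.243%, 0.275%, 0.2965% and 0.267%. With a mean of 20 or more counts it was 0.417% in NTF and 0.297% in WTM, and without the pair 0.305% in WTF, 0.208% in NTF, 0.207% in WTM and 0.209% in Abcb11M. With a mean of 100 or more it was 0.373% in NTF and 0.262% in WTM, and without the pair 0.238%, 0.164%, 0.172% and 0.166% in the same 4 groups.

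Neat1 values near 0 changed sign: its interaction was 0.0879 with limma-voom, 0.0268 without the low-count filter, and -0.47 to 0.44 with 1 library left out. In WTM against WTF it ran from -0.56 to 0.31, and in Abcb11M against NTF from -0.44 to 0.14. Malat1 in Abcb11M against NTF was 0.0732 with limma-voom and -0.21 to 0.0885 with 1 library left out.

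Genes with a mean near 50 counts have a few counts per library in their low groups, so their fold changes are imprecise.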
